A study of Mus musculus with 12 samples.

Results

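Genes of the cytosolic and mitochondrial chaperone systems were followed in mLTC-1, an immortalized mouse line of Leydig cells, the androgen-producing cells of the testis. A gene was a member if its symbol was on a list of heat shock proteins, co-chaperones, subunits of the Cct chaperonin and mitochondrial chaperones, and 31 of the 26214 gene symbols in the count table were members. Of these 31 genes, 22 had enough counts to be tested and 9 did not. Polyadenylated RNA was counted in 12 libraries: 6 of cells given the vehicle DMSO (control) and 6 of cells given 100 µM MSNBA, an aromatic amine that, per the series, inhibits Glut5, a transporter of fructose, both for 24 h. All libraries came from this 1 cell line grown in medium with serum, and nothing in the labels tells if replicates came from separate cultures. P-values therefore cover only the spread among these libraries, which may be technical.

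Chaperones bind unfolded stretches of other proteins and help them to fold. Hsp70 proteins hold short hydrophobic segments in cycles of ATP use that J-domain proteins (Hsp40) start and exchange factors such as Hsp110 end. Hsp90 then finishes kinases and steroid receptors with the help of its co-chaperones, and the ring-shaped Cct complex folds actin and tubulin. In mitochondria, where Leydig cells begin steroid synthesis, the Hsp70 protein of Hspa9 draws imported proteins inward and the Hsp60 ring of Hspd1, capped by the Hsp10 protein of Hspe1, folds them. The transcription factor Hsf1 raises many of these genes together after heat or other protein damage.

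Library totals ran from 59113 to 234225 counts in controls and from 94179 to 657251 counts in MSNBA libraries, which were 2.14-fold deeper by geometric mean. The 31 genes held between 0.797% and 0.935% of the counts of a library, with medians of 0.853% in controls and 0.881% in MSNBA. All 10 Leydig markers examined had counts in both groups, and their summed level was 8049 to 11360 CPM (counts of a gene scaled to 1000000 counts of the library) in controls and 7993 to 9917 CPM in MSNBA. Summed over 7 macrophage markers the level was at most 35.7 CPM in any library, with Cd14 at 0 throughout, and over 6 endothelial markers it was at most 50.8 CPM, with Cldn5 at 0. Summed over 8 Sertoli cell markers it was 1203 to 2285 CPM in controls and 1188 to 1516 CPM in MSNBA. Of these markers, Clu gave 966 counts in controls and 1825 in MSNBA, Inha 67 and 135, and Dhh 28 and 60. Gata1 gave 21 and 27 counts, Sox9 3 and 13, Cldn11 3 and 1, Fshr 1 and 1, and Amh 1 count over all libraries together. Over 7 germ cell markers the summed level was at most 169.2 CPM and over 7 peritubular and fibroblast markers at most 84.6 CPM. The part of these markers in the results was not tested. Single-gene levels are given as normalized CPM, for which library size is the sum over the tested genes scaled by its TMM factor. Summed levels use all counts of a library. In GENCODE, 9 of the 31 genes share exonic bases with a gene on the opposite strand, where reads could not be told apart without strand.

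MSNBA was compared with control at this 1 dose and time. No member passed an adjusted p of 0.05 by the edgeR quasi-likelihood test, by DESeq2 or by limma-voom. The background by edgeR was 0% of the 2614 tested genes higher and 0.0765% lower. Of the same genes 0 passed by DESeq2 and 1 by limma-voom. An unadjusted edgeR p under 0.05 was found for 2 members with higher levels, Hspa9 and Hspe1, and 2 with lower levels, Fkbp8 and Fkbp4, and DESeq2 and limma-voom gave the same counts of 2 and 2. Over all tested genes 4.17% were higher and 4.78% lower by this looser rule, so these shares of 22 genes come to about 1 gene in each direction, where 2 were found. Over the 22 tested members the median log2 fold change was 0.06, against -0.0082 for all tested genes, with 13 values above 0 and 9 below.

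**Figure D1:**
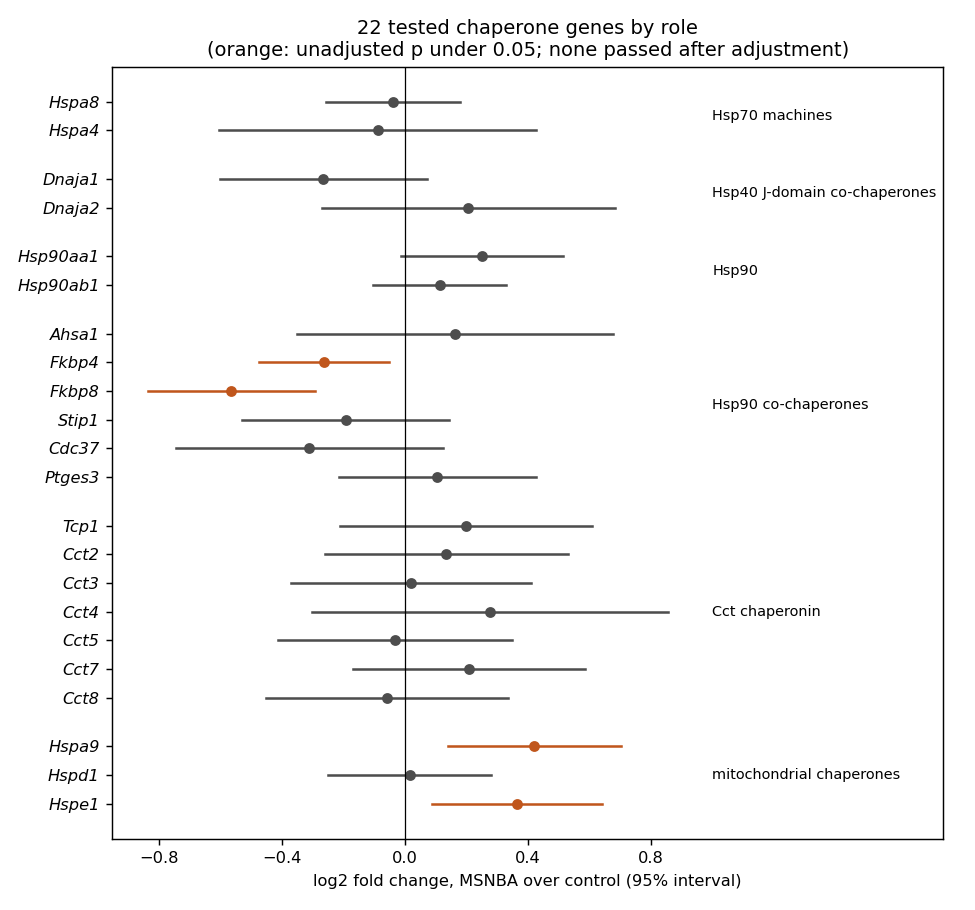
Log2 fold change of MSNBA over control (points) with its 95% interval (lines) for the 22 tested chaperone genes, grouped by role. The 4 genes with an unadjusted p under 0.05 are orange: Fkbp8 at -0.56 and Fkbp4 at -0.26 lie left of 0, and Hspa9 at 0.42 and Hspe1 at 0.36 lie right of it.

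Hspe1, which encodes the Hsp10 lid of the mitochondrial folding chamber, measured 364 to 497 CPM in controls (median 433) and 506 to 640 CPM in MSNBA (median 543). Every MSNBA library lay above every control. Genes whose groups did not overlap made up 0.23% of the tested genes in this direction, 6 of 2614, and Hspe1 was the 1 member among them. Its log2 fold change was 0.36 (SE 0.14, unadjusted p = 0.0106, adjusted p = 0.373 by edgeR), a 1.29-fold difference with a 95% interval from 1.06-fold to 1.56-fold. The spread of Hspe1 in controls was 10.9% of its mean, under the 17.99% that counting error alone gives at these depths.

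Hspa9, which encodes the mitochondrial Hsp70 that pulls precursor proteins through the import channel, measured 405.5 to 711.5 CPM in controls (median 583.5) and 596 to 871 CPM in MSNBA (median 732). The groups overlapped, and 3 of 6 MSNBA libraries lay above all controls. The log2 fold change was 0.42 (SE 0.14, unadjusted p = 0.0043, adjusted p = 0.249 by edgeR), with an interval from 1.102-fold to 1.63-fold.

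Hspd1, which encodes the Hsp60 ring on which the Hsp10 lid sits, measured 520 to 1074 CPM in controls (median 776) and 691 to 868 CPM in MSNBA (median 845.5). All MSNBA values lay within the control range. The log2 fold change was 0.02 (SE 0.13, adjusted p = 0.987 by edgeR), with an interval from 0.842-fold to 1.22-fold.

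**Figure D2:**
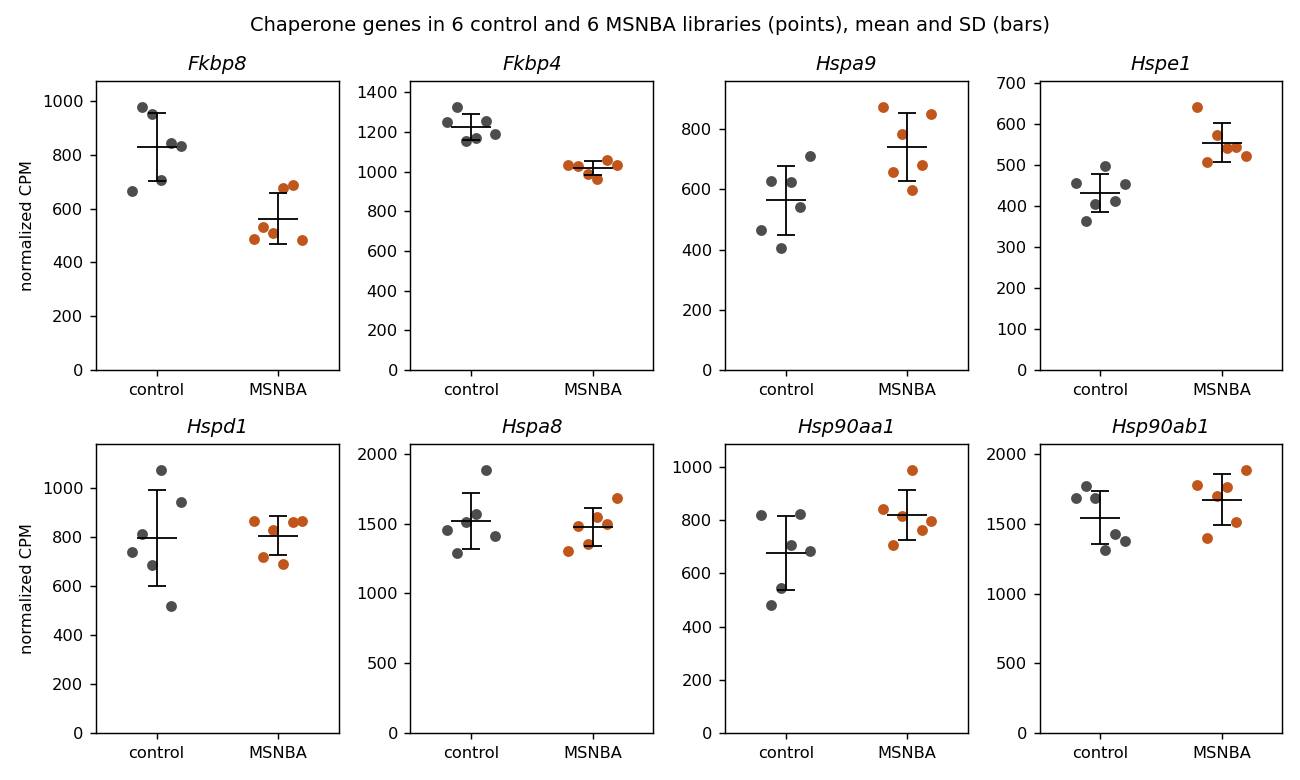
Normalized CPM of 8 chaperone genes in 6 control and 6 MSNBA libraries (points), with the mean and SD of each group (bars) on axes that start at 0. Hspe1 and Fkbp4 show no overlap between the groups, Fkbp8 and Hspa9 overlap in part, and in Hspd1 the MSNBA libraries, at 691 to 868 CPM, sit inside the wider control range.

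Hspd1 and Hspe1 lie head to head on mouse chromosome 1 and share the sequence between their starts, so it is shown here together with promoters of a pair of heat-inducible members and of Fkbp8, the member with the lowest p. Capitals mark pairs of heat shock element units, the letters bound by Hsf1, searched as GAANNTTC and TTCNNGAA. Each of these reads the same on both strands, and neighbouring pairs may overlap by sharing a unit. Sequences are from RefSeq, build GRCm38.p6, each 5′ to 3′ on the strand of its gene, and stop before the exons of the first-numbered GENCODE transcript of any gene there. Other GENCODE transcripts of Hspd1, Hsph1 and Fkbp8 start inside or beyond them.
Hspe1 and Hspd1, chr1:55088025-55088131, plus strand: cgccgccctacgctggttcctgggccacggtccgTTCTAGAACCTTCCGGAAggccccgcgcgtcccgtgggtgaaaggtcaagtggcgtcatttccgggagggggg
Hsph1, chr5:149636337-149636586, minus strand: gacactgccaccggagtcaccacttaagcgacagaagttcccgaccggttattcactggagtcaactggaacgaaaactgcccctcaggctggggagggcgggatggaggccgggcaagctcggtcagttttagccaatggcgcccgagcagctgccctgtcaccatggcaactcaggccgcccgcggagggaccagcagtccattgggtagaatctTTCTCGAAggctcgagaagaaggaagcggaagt
Hspa1b, chr17:34959239-34959488, minus strand: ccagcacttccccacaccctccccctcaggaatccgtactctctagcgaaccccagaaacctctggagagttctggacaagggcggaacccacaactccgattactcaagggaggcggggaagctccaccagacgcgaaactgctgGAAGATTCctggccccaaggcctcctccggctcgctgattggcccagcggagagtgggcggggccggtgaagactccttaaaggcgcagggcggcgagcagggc
Fkbp8, chr8:70527493-70527742, plus strand: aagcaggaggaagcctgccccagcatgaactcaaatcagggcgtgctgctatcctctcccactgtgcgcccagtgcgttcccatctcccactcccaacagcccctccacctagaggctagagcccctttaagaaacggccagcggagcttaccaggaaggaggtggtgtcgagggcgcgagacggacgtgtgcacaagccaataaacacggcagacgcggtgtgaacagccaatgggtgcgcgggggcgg

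The stretch between Hspd1 and Hspe1 held 3 overlapping pairs, which together spell 2 runs of 3 alternating units. The Hsph1 and Hspa1b stretches held 1 pair each and the Fkbp8 stretch held 0, which says only that these letters are not in that window. RefSeq promoter windows of 300 bases, from 250 before to 50 after a gene's start, were found for 26 of the 31 members. A pair was in windows of 15 of these 26 genes and in 48.5% of their 33 windows, against 15.1% of all 32851 windows in the table. Runs of 3 units were in 15.2% of member windows, 5 of 33, those of Hspd1, Hspe1, Hsph1 and Chordc1, against 0.603% of all windows. These 5 windows are not separate: those of Hspd1 and Hspe1 overlap and hold the same runs, and those of Hsph1 overlap each other. The same stretch was thus counted more than once in the member share. The stretch between Hspd1 and Hspe1 lies beside a gene at 1.01-fold and a gene at 1.29-fold.

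Across the 12 libraries the log2 CPM of Hspd1 and Hspe1 had a Pearson r of 0.36 (permutation p = 0.253) and a Spearman rho of 0.36 (permutation p = 0.256). Within the 6 controls r was 0.52 (exact permutation p = 0.287) and rho 0.49 (exact permutation p = 0.356). Within the 6 MSNBA libraries r was 0.47 (exact permutation p = 0.371) and rho 0.49 (exact permutation p = 0.356). Without controls 4 and 5, the 2 libraries farthest from the Hspd1 median, r was 0.24 (permutation p = 0.499). No relation between the levels of this pair was detectable in these libraries, and it was the 1 pair tested for a correlation.

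The ratio of counts of 2 genes in a library does not depend on how the library is scaled. For Hspe1 over Hspd1 it was 0.449 to 0.792 in controls (median 0.536) and 0.603 to 0.784 in MSNBA (median 0.698). All MSNBA values lay under the highest control, that of control 5. For Hspa9 over Hspd1 it was 0.582 to 1.04 in controls (median 0.692) and 0.792 to 1.00 in MSNBA (median 0.930). In mean log2 ratio the MSNBA libraries exceeded controls by 0.32 for Hspe1 over Hspd1 (exact two-sided permutation p = 0.0584, adjusted p = 0.0877 over 3 pairs) and by 0.36 for Hspa9 over Hspd1 (exact p = 0.0368, adjusted p = 0.0877). For Hspe1 over Hspa9 the difference was -0.041 (exact p = 0.771). These 3 ratios were chosen after the values were seen, and none passed after adjustment. The exact p for Hspa9 over Hspd1 ran from 0.0022 to 0.0714 with 1 library left out and was 0.0905 without controls 2 and 4. For Hspe1 over Hspd1 the difference ran from 0.26 (exact p = 0.1104, without control 2) to 0.42 (exact p = 0.0065, without control 5) with 1 library left out. Without controls 2 and 4 it was 0.18 (exact p = 0.238).

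**Figure D3:**
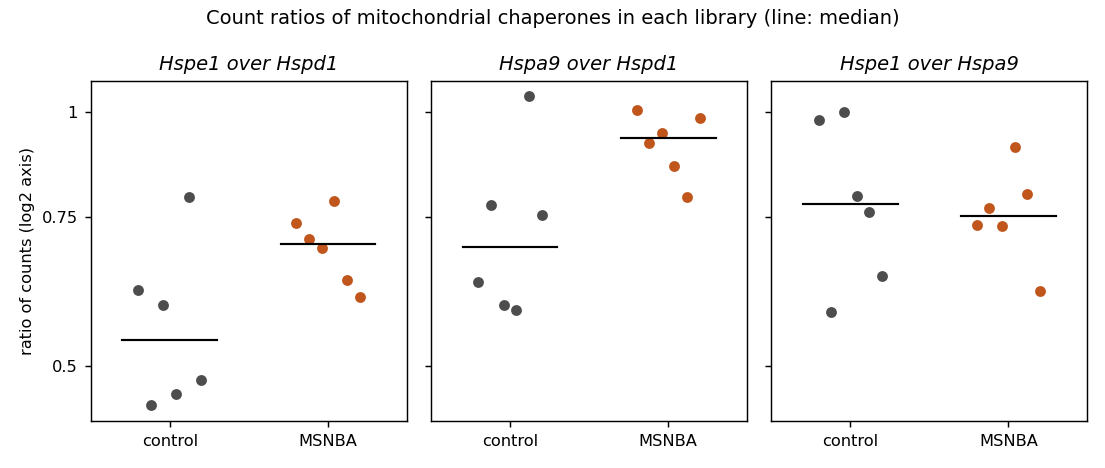
Ratio of counts for 3 pairs of mitochondrial chaperones in each of 6 control and 6 MSNBA libraries (points, log2 axis), with the group median (line). Controls spread more widely than MSNBA libraries, from 0.449 to 0.792 for Hspe1 over Hspd1, and the groups overlap in all 3 panels.

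Depth and the level of a stress program also differed between the groups. With log2 library depth as a covariate the log2 fold change was 0.25 (unadjusted p = 0.120) for Hspe1 and 0.32 (unadjusted p = 0.0481) for Hspa9 by edgeR. Genes of the integrated stress response, a list of 10 led by Atf4 and Ddit3, summed to 1238 to 3934 CPM in controls and 2021 to 3492 CPM in MSNBA, with controls 2 and 4 at 3934 and 2645 CPM. Without these controls Hspe1 had a log2 fold change of 0.36 and Hspa9 one of 0.50, with adjusted p-values of 0.453 and 0.215 by edgeR. The stress sums of the remaining controls, 1238 to 1614 CPM, all lay below those of the MSNBA libraries. Stress level and treatment therefore cannot be told apart in this setting. Control 2, with the highest stress sum of the 12 libraries, had the lowest Hspe1 level, 364 CPM. Control 4 had the highest Hspe1 level of the controls, 497 CPM. MSNBA 6, with the highest stress sum of its group, 3492 CPM, had 522 CPM of Hspe1. That is near the low end of the MSNBA range of 506 to 640 CPM, all of which lay above every control. The part of depth in these values was not tested beyond the covariate, and that of the stress program was not tested. Hspd1 and Hspe1 share 112 exonic bases on opposite strands and have 5 and 6 named pseudogenes, so the split of reads that fit more than 1 of these genes is uncertain.

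Other mitochondrial chaperones and proteases came from a list of 20 genes, 13 of them tested, of which 0 passed by edgeR. Of these, 3 were higher and 1 was lower before adjustment (p under 0.05), where 4.17% and 4.78% of all tested genes were, beside a list median log2 fold change of 0.01 that was near the median of all tested genes. Dnaja3, a mitochondrial J-domain partner of Hspa9, measured 109 to 249 CPM in controls and 186 to 317 CPM in MSNBA (log2 fold change 0.59, SE 0.21, adjusted p = 0.318). Pam16, a subunit of the import motor that Hspa9 drives, measured 65.0 to 231 CPM and 216 to 312 CPM (0.49, SE 0.20, adjusted p = 0.401). Dnajc19, another J-domain protein of that motor, measured 21.7 to 112 CPM and 54.2 to 125 CPM (0.57, SE 0.28, adjusted p = 0.545). Phb2, a prohibitin of the inner membrane, measured 397 to 655 CPM in controls and 351 to 434 CPM in MSNBA (log2 fold change -0.36, SE 0.14, adjusted p = 0.401). The groups overlapped for each of these 4 genes. Grpel1, the exchange factor of Hspa9, had a log2 fold change of 0.21 (SE 0.20), Trap1, the mitochondrial Hsp90, one of -0.29 (SE 0.22), and the protease gene Lonp1 one of -0.09 (SE 0.11).

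Both members with a lower level at an unadjusted p under 0.05, Fkbp8 and Fkbp4, are Hsp90 co-chaperones, and neither passed after adjustment. Fkbp8 encodes an FK506-binding protein anchored in the outer mitochondrial membrane that binds Hsp90 and Bcl2. It measured 666 to 976 CPM in controls (median 838) and 485 to 688 CPM in MSNBA (median 522). In 4 of 6 MSNBA libraries the level lay below all controls, and MSNBA 4 and 5 lay within the lower end of the control range. The log2 fold change was -0.56 (SE 0.13, unadjusted p = 0.00014, adjusted p = 0.101 by edgeR), a 0.677-fold level with a 95% interval from 0.561-fold to 0.817-fold. Fkbp8 had the third lowest p of all 2614 genes, rank 3. It passed the threshold without control 1 (log2 fold change -0.64, adjusted p = 0.0312) and without MSNBA 4 (-0.61, adjusted p = 0.0416), and its adjusted p was up to 0.263 without another library. Over all tested genes, 5 of 2668 passed as lower without control 1 and 4 of 2783 without MSNBA 4, against 2 of 2614 with all libraries. With library depth in the model Fkbp8 was at -0.38 (adjusted p = 0.467 by edgeR). Fkbp8 shares 224 exonic bases with Kxd1 on the opposite strand, and Kxd1 had 19 counts in controls and 73 in MSNBA beside 426 and 684 counts of Fkbp8. These are unscaled sums, from group totals of 679637 counts in controls and 1598286 in MSNBA.

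Fkbp4 encodes FKBP52, an Hsp90 partner of steroid receptors. It measured 1154 to 1324 CPM in controls (median 1220) and 962 to 1060 CPM in MSNBA (median 1032). Every MSNBA library lay below every control, as for 0.421% of tested genes in this direction, 11 of 2614, of which Fkbp4 was the 1 member. The log2 fold change was -0.26 (SE 0.10, unadjusted p = 0.016, adjusted p = 0.401 by edgeR), a 0.834-fold level with an interval from 0.720-fold to 0.965-fold. The libraries of a group differed by 5.21% of the mean in controls and 3.58% in MSNBA, where counting error alone gives 10.7% and 8.27%. Without the low-count filter the log2 fold change was -0.11 (unadjusted p = 0.405 by edgeR), in a fit where the median over the 2614 genes was 0.14 in place of -0.0082.

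The other tested co-chaperones had intervals that included 1-fold. Cdc37, which brings kinases to Hsp90, measured 112 to 195 CPM in controls and 96.9 to 136 CPM in MSNBA (log2 fold change -0.31, SE 0.22, adjusted p = 0.676). Stip1, the adaptor that holds Hsp70 and Hsp90 together, had a value of -0.19 (SE 0.17), Ptges3, the p23 protein that closes Hsp90, one of 0.11 (SE 0.16), and Ahsa1, which speeds its ATP use, one of 0.16 (SE 0.26). Ahsa1 was at 21.7 CPM in control 5, from 1 count, and at 66.2 to 160 CPM in the other controls. Over the 6 tested co-chaperones the log2 fold change had a median of -0.23, with 4 values below 0 and 2 above. Summed over the 7 listed genes, their level was 2250 to 2596 CPM in controls and 1865 to 2258 CPM in MSNBA, ranges that overlapped only from 2250 to 2258 CPM. Fkbp4 and Fkbp8 carried that difference: the sum over the other 5 genes, taken after the values were seen, was 609 to 904.9 CPM in controls and 679.7 to 859 CPM in MSNBA, within the control range. Of 18 further Hsp90 co-chaperones, 6 were tested and 0 were past an unadjusted p of 0.05, from -0.17 for Nudc to 0.14 for Nudcd3.

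Hsp90 itself is made from a pair of cytosolic genes. Hsp90aa1, the stress-inducible form, measured 480 to 823 CPM in controls (median 696) and 709 to 989 CPM in MSNBA (median 807). Its log2 fold change was 0.25 (SE 0.13, unadjusted p = 0.0605, adjusted p = 0.571 by edgeR), with 2 of 6 MSNBA libraries above all controls. Hsp90ab1, the constitutive form, measured 1315 to 1770 CPM (median 1557) and 1401 to 1886 CPM (median 1731), with a log2 fold change at 0.11 (SE 0.11, adjusted p = 0.786). The groups overlapped for both genes, and the intervals ran from 0.992-fold to 1.43-fold for Hsp90aa1 and from 0.932-fold to 1.26-fold for Hsp90ab1.

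Among the Hsp70 machines, Hspa8, the constitutive cytosolic Hsp70, measured 1290 to 1885 CPM in controls (median 1484) and 1303 to 1685 CPM in MSNBA (median 1493). The log2 fold change was -0.04 (SE 0.11, adjusted p = 0.952 by edgeR), with an interval from 0.838-fold to 1.13-fold. The sign turned to 0.11 with no filter on low counts and to 0.079 with depth as a covariate. In the fit with no filter the median over the 2614 genes was itself 0.14 in place of -0.0082. Hspa4, an Hsp110 exchange factor, had a log2 fold change of -0.09 (SE 0.26). The J-domain partners stood on either side of 0, with Dnaja1 at -0.26 (SE 0.17, adjusted p = 0.632) and Dnaja2 at 0.21 (SE 0.24, adjusted p = 0.834). Dnaja1 measured 240.5 to 433 CPM in controls and 248 to 339 CPM in MSNBA, within the control range. Of 12 Hsp70 exchange factors and ubiquitin links 7 were tested, all with values below 0, from -0.25 for St13, the Hip co-chaperone, to -0.04 for Stub1, the ubiquitin ligase CHIP, and 0 were past an unadjusted p of 0.05. Of the alternatives, this list was followed only with RLE factors, library size alone, no low-count filter and depth as a covariate. All 7 were below 0 with RLE factors or library size alone, which differ from the reported test only in scaling. Without the low-count filter 3 were above 0, and with depth as a covariate 2 were.

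The Cct chaperonin is a double ring of 8 different subunits, all of them members, and 7 were tested. None had an unadjusted p under 0.05 by edgeR. Their log2 fold changes had a median of 0.14 and ran from -0.06 (SE 0.20) for Cct8 to 0.28 (SE 0.29) for Cct4, with Tcp1, the first subunit named, at 0.20 (SE 0.20), Cct7 at 0.21 (SE 0.19), Cct2 at 0.14 (SE 0.20), Cct3 at 0.02 (SE 0.19) and Cct5 at -0.03 (SE 0.19). Every interval included 1-fold, and together they reached from 0.732-fold for Cct8 to 1.81-fold for Cct4. With depth as a covariate the median was -0.043, and Cct2 (-0.043) and Cct3 (-0.063) changed sign. Summed over 8 subunits the level was 831 to 1319 CPM in controls and 1017 to 1385 CPM in MSNBA, with control 2 lowest. The prefoldins and regulators that serve this complex had 6 tested genes of 13, of which Txndc9, a regulator that binds the chaperonin, stood at a log2 fold change -0.60 (SE 0.26, unadjusted p = 0.0265, adjusted p = 0.446 by edgeR), with groups that overlapped (62.4 to 225 and 62.4 to 112 CPM).

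The genes that best mark a heat shock response were among the 9 members below the count filter. They are given as counts pooled over the 6 libraries of a group with exact Poisson intervals at 95%, which cover counting error only. MSNBA 1 held 657251 of the 1598286 counts of its group, so the pooled MSNBA levels rest largely on this 1 library. Hspa1b, the main inducible Hsp70 gene here by counts, had 31 counts in controls and 72 in MSNBA, 45.6 CPM (interval 30.99 to 64.7) and 45.1 CPM (35.3 to 56.7). Every library had at least 3 counts of it, and MSNBA 1 had 35 of the 72. The ratio of MSNBA to control was 0.988, with a counting interval from 0.640 to 1.56. Hspa1a, its neighbour on chromosome 17, had 2 and 6 counts, a ratio of 1.28 (interval 0.228 to 12.9). The coding sequences of these neighbours are closely similar, so how reads were split between them is uncertain.

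Dnajb1, the inducible J-domain partner, had 27 and 67 counts, 39.7 CPM (26.2 to 57.8) and 41.9 CPM (32.5 to 53.2). Hsph1, the inducible Hsp110, had 21 and 60 counts, 30.9 CPM (19.1 to 47.2) and 37.5 CPM (28.7 to 48.3). Chordc1, an Hsp90 co-chaperone whose window held runs of 3 units, had 24 and 51 counts, 35.3 CPM (22.6 to 52.5) and 31.9 CPM (23.8 to 42.0). All 3 ratios had counting intervals that included 1, from 0.666 to 1.72 for Dnajb1, 0.728 to 2.10 for Hsph1 and 0.546 to 1.54 for Chordc1.

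Hspb1, a small heat shock protein that holds unfolded clients, had 22 and 42 counts, 32.4 and 26.3 CPM. Bag3, which links Hsp70 to small heat shock proteins and autophagy, had 7 and 23 counts, a ratio of 1.397 with an interval from 0.580 to 3.86. Hspb8, its small heat shock partner, was at 0 counts in every library, where the floor, 3 counts over a group, is 4.41 CPM in controls and 1.88 CPM in MSNBA. Cct6a, the remaining chaperonin subunit, had 43 and 117 counts, a ratio of 1.16 (interval 0.809 to 1.68). Tested by edgeR without the low-count filter, 8 of these 9 genes had adjusted p-values from 0.745 to 0.985 and unadjusted p-values from 0.316 to 0.900, where 6.96% of 19576 genes were under 0.05. For these genes a difference smaller than the intervals was not detectable at this depth.

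**Figure D4:**
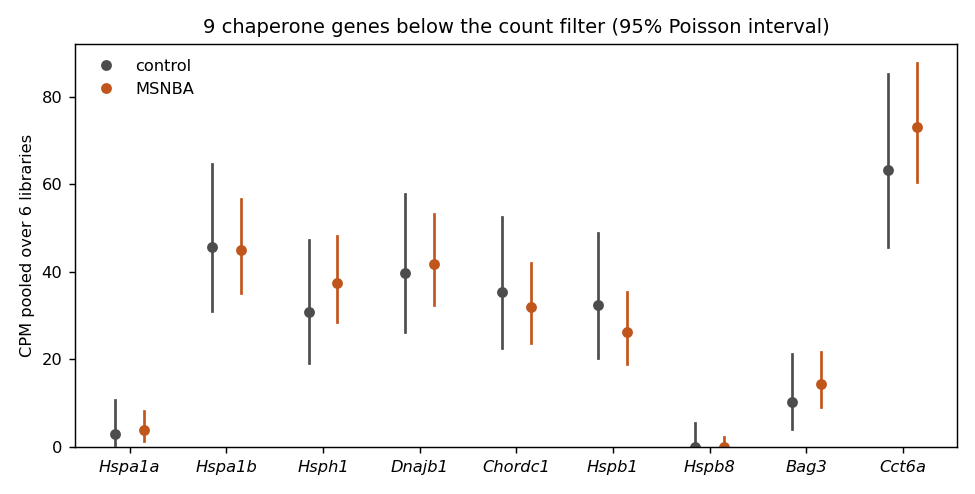
Level in CPM of 9 chaperone genes below the count filter, pooled over 6 control or 6 MSNBA libraries (points), with 95% Poisson intervals (lines). The intervals of control and MSNBA overlap for every gene, and Hspb8 is at 0 in both groups.

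Heat shock factors and further heat-inducible genes came from a list of 19, of which 4 were tested. All 4 had values above 0 and none was past an unadjusted p of 0.05. Among them were Hmox1, the stress-induced heme oxygenase, at 0.31 (SE 0.28), Hsbp1, which binds heat shock factor, at 0.28 (SE 0.17), and the ubiquitin gene Ubb at 0.13 (SE 0.11). Over all 115 other chaperone-network genes listed, 45 were tested and 0 passed by edgeR, DESeq2 or limma-voom. By edgeR 6 were under an unadjusted p of 0.05, with 4 higher and 2 lower. The shares over all tested genes, 4.17% and 4.78%, come to about 2 of 45 genes in each direction, so the lower count is at the background. The median log2 fold change was -0.02. Beyond those named, the fourth higher gene was Ppia, the cytosolic cyclophilin A, at 761 to 1021 CPM in controls and 854 to 1156 CPM in MSNBA (log2 fold change 0.28, SE 0.12, adjusted p = 0.403). Ppia belongs to a family with many processed pseudogenes, so its counts are uncertain.

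Members differed in how far libraries of a group lay apart. Among the 22 tested members the SD over controls ran from 5.21% of the mean for Fkbp4 to 51.9% for Cct4, and it was above the counting expectation in 13. In MSNBA, where libraries were deeper, it ran from 3.58% for Fkbp4 to 35.6% for Hspa4 and was above the expectation in 15.

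**Figure D5:**
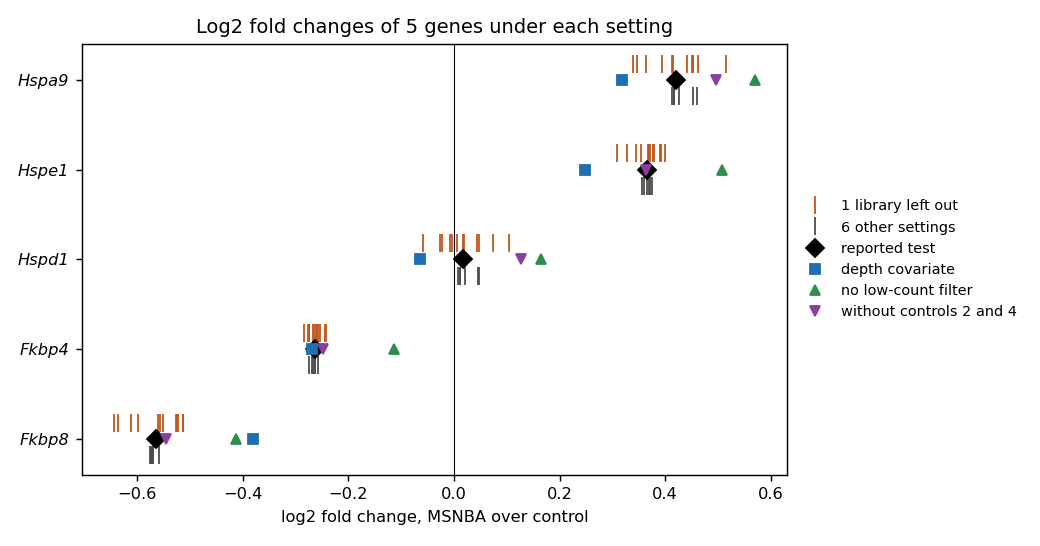
Log2 fold change of MSNBA over control for 5 members in the reported edgeR test (diamonds), with depth in the model, without the low-count filter, without controls 2 and 4, with 6 other settings and with 1 library left out (ticks). Fkbp8 and Fkbp4 stay left of 0 and Hspa9 and Hspe1 right of it in every setting drawn, from -0.64 to -0.38 for Fkbp8 and from 0.25 to 0.51 for Hspe1, while Hspd1 lies on both sides.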

How the data were processed

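The authors deposited 1 table of whole-number counts by gene symbol, not normalized. Per the submitters' processing notes, BWA 0.7.4.4 and the mm10 build were used, and the name of the table refers to unique alignments, RefSeq and UMIs (molecular identifiers). Which program counted them, with which annotation release and strand setting, is not given in the sources used here.

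Groups came from the labels. Genes were filtered by filterByExpr (minimum count 10, scaled to library size), scaled by TMM and tested in R 4.3.3 with edgeR 4.0.16 (robust quasi-likelihood F test, intercept and treatment). Two-sided p-values were adjusted by Benjamini-Hochberg over 2614 genes. The SE was taken as the absolute log2 fold change divided by the root of F. The test was tried on simulated counts with known changes, drawn at a spread shared by all genes, and the outcome is not reported here. Single values used exact permutation of the libraries, and correlations over 10 or more libraries used 100000 resamples. Neighbouring genes came from GENCODE and promoters from RefSeq, both of GRCm38.

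Members and lists were chosen with earlier results of these data known. All 31 members are named, by role, and other chaperone-network genes if past the threshold or, as here, at an unadjusted p under 0.05. Others were named after their values were seen, and some results are not reported here. Alternatives were DESeq2 1.42.0, limma-voom (limma 3.58.1), RLE factors, library size alone, no filter, a filter at 20 counts in at least 6 libraries, a replicate block, depth as a covariate, and libraries left out. Same-number libraries were checked for pairing: their residuals correlated over 0.1 in 2 of 6 pairs (-0.13 to 0.37), so no block was used.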

Additional observations from a re-analysis of the deposited data

How the results depend on the processing

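The count of members past the threshold was 0 in the reported test and 0 under DESeq2, limma-voom, RLE factors, library size alone, no filter, the stricter filter, the replicate block, the depth covariate and without controls 2 and 4. Of all 2614 tested genes, 0 passed by DESeq2 or with the depth covariate, 1 by limma-voom and 2 with RLE factors or library size alone. Without the filter 15 of 19576 passed, and under the stricter filter 1 of 1319. Without controls 2 and 4, 4 of 3076 passed as higher and 3 as lower. A member count of 0 is thus near the share over all genes. With 1 library left out the member count ran from 0 to 1, the 1 being Fkbp8 without control 1 or MSNBA 4. The count of other network genes was 0 throughout. The replicate numbers are not shown to pair the libraries. With them as a block 0 members passed, where 0 of all 2614 tested genes passed as higher and 3 as lower.

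Over settings other than leaving out a library, 184 of 193 single-gene values kept direction and call. As 0 members passed in the reported test, this means only that the sign held and the gene again failed, whatever its size. With depth in the model, for example, Fkbp8 shrank from -0.56 to -0.38, while Dnaja1 grew from -0.26 to -0.40 (unadjusted p = 0.0378 by edgeR). Without the low-count filter, where the median of all genes moved by the amount given above, the member median was 0.21 and the Hsp90 median 0.33, and signs turned for Hspa8 (0.11), Hspa4 (0.055), Cct5 (0.11) and Cct8 (0.084). With depth in the model they turned for Hspa8 (0.079), Cct2 (-0.043), Cct3 (-0.063) and Hspd1 (-0.064), and without controls 2 and 4 for Cct3 (-0.012). The J-domain median was -0.27 under the stricter filter, from Dnaja1 alone, since Dnaja2 was not tested there. The cause of the other turns was not tested.

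With 1 library left out, 243 of 262 values kept direction and call in the same sense. Signs turned for Hspa8 (-0.077 to 0.022), Cct3 (-0.050 to 0.13), Cct5 (-0.12 to 0.040), Cct8 (-0.13 to 0.011), Hspd1 (-0.059 to 0.10) and the log2 ratio of Hspe1 over Hspa9 (-0.13 to 0.032). In these runs Fkbp8 lay from -0.64 to -0.51, Fkbp4 from -0.28 to -0.24, Hspa9 from 0.34 to 0.51 and Hspe1 from 0.31 to 0.40. The r of Hspd1 and Hspe1 ran from 0.19 to 0.47, and the difference in Hspa9 over Hspd1 from 0.30 to 0.47 (exact p from 0.0022 to 0.0714). Depth limits the shallow controls most: counting error alone gave 40.5% of the mean for Cct4 there.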

Other observations

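Some lists of the network held genes not described above, and 0 of their tested genes passed by edgeR. Of 17 other J-domain proteins of cytosol and nucleus 5 were tested, with log2 fold changes from -0.26 for Dnajc9 to 0.46 for Dnajc8, and 0 were past an unadjusted p of 0.05. Of 7 tubulin folding cofactors 1 was tested, Tbca, at 0.17 (SE 0.22). Among 9 cytosolic prolyl isomerases 3 were tested, of which Fkbp1a, the FK506-binding protein FKBP12, stood at 0.15 (SE 0.14).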
